A study of Xenopus tropicalis with 12 samples.

Results

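The comparison described here set the intestine of premetamorphic Xenopus tropicalis tadpoles lacking both thyroid hormone receptor genes against that of wild-type tadpoles. Its members are the 6 libraries labelled stage 54, out of 12 libraries in the series, chosen by their labels alone. There were 3 libraries from TR knockout (TRDKO) tadpoles, with the genotype TRα-/- TRβ-/-, and 3 from wild-type tadpoles, with the genotype TRα+/+ TRβ+/+. All were made from RNA of the intestine at stage 54, for which the labels name no treatment and no layer or segment, and are referred to by genotype and replicate number. The other 6 libraries came from the same genotypes at stage 61, the climax of metamorphosis. They are used below to set the stage 54 differences beside later ones. They were also part of the fit behind the stage 54 calls, where they entered the choice of genes tested, the scaling and the estimate of the spread.

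Thyroid hormone (T3) acts mainly through its nuclear receptors, TRα and TRβ, which bind DNA as heterodimers with retinoid X receptors. A receptor without hormone holds down transcription of the genes it is bound to by way of corepressors such as NCoR and SMRT. Binding of T3 changes the shape of the receptor, so that coactivators take their place and transcription goes up. Metamorphosis rebuilds the intestine, as larval epithelial cells die and newly formed stem cells give rise to the epithelium of the frog. A comparison of knockout and wild-type intestine at stage 54 therefore addresses what gene expression looks like when the unliganded receptors are missing.

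Several features of the groups limit what the comparison can separate. The knockout tadpoles came from crosses of frogs that were all TRα-/-, so they cannot have had wild-type siblings, and genotype and clutch cannot be told apart. A pair of knockout lines with different deletions in TRβ was used in the study, and which line gave which library is not stated. Combining several animals per RNA sample is described for the RT-PCR and not mentioned for sequencing. Because RNA came from intestinal tissue and not from sorted cells, fewer cells of a type and less RNA per cell cannot be told apart. Genes are named by Ensembl ID alone in the deposited counts. The available gene table holds no Ensembl IDs, so a match of the 19921 IDs to it gave 0 names. TRα and TRβ themselves, intestinal markers and markers of other tissues were therefore not examined, and no gene below is given a name or a role.

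The total count per library was 20963454 to 37936503 in TRDKO and 21418372 to 31110136 in wild-type tadpoles at stage 54. Libraries were put on a common scale with edgeR's TMM method, which assumes that most genes do not change. Levels are given in CPM, counts scaled to the size of the library, on that scale. A count of 0 still allows up to 3 counts, which were 0.0825 to 0.143 CPM in TRDKO and 0.146 to 0.208 CPM in wild-type libraries. These limits cover counting error only.

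The replicates of the TRDKO group were not alike. Replicates 1 and 2 correlated at 0.994 in log2 CPM across genes, and their counts differed by little more than sampling noise: the median over genes of the chi-square was 1.20 times the value that noise alone gives. Replicate 3 correlated with them at 0.950 and 0.951, with a median chi-square 26.9 and 30.7 times that value. The 3 pairs of wild-type libraries correlated at 0.992 to 0.993, with ratios of 1.24 to 1.46. Among the 7333 genes averaging 10 CPM or more over the 6 libraries, 1 gene differed more than 2-fold between TRDKO replicates 1 and 2. Between replicate 3 and each of the other TRDKO replicates, 724 and 728 genes did (9.87% and 9.93%), and between any pair of wild-type libraries 1 to 3 genes did. Replicate 3 was higher than the mean of the other TRDKO replicates by more than 2-fold in 306 of the 7333 genes and lower in 413. Of the 3 TRDKO libraries it was also the one most like the stage 61 libraries of both genotypes. Its correlation was 0.928 to 0.929 with the TRDKO libraries of stage 61, against 0.908 to 0.910 for replicates 1 and 2. With the wild-type libraries of stage 61 it was 0.854 to 0.856, against 0.813 to 0.816. With the wild-type libraries of stage 54 the 3 TRDKO libraries correlated almost equally, at 0.920 to 0.923. The labels do not say how replicate 3 differed from the others. The numbers of calls, silent genes and detected genes, the share of the most abundant genes and the genes given by ID were also obtained without it. The fold sizes, quintiles, set levels and the stage 61 results of the called genes were computed only with it. The samples are described as biological replicas, without the number of animals in each. Whether TRDKO replicates 1 and 2 came from separate animals is not stated. The same holds for the wild-type replicates, which were about as alike. The p-values below therefore measure the spread between these samples, which may be technical in either genotype. In the fit of 12 libraries each gene has 1 spread shared by the 4 groups. The unevenness of the TRDKO libraries of stage 54 is thereby averaged with the other groups, so these p-values can understate the spread within that group. The common biological coefficient of variation was 0.152 with all 12 libraries and 0.0215 without TRDKO replicate 3 of stage 54.

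The level of 4701 genes, 33.7% of the 13954 tested, differed between TRDKO and wild-type tadpoles at stage 54. Of these, 3025 (21.7% of the genes tested) were higher in TRDKO tadpoles and 1676 (12%) were lower. Calls required a change of more than 2-fold and a p-value from edgeR's quasi-likelihood test that was under 0.05 after Benjamini-Hochberg adjustment. Without TRDKO replicate 3 the test called 2977 higher and 1719 lower genes, of which 2674 and 1410 were also called with all libraries. With replicate 3 as the single TRDKO library of the stage, a fit chosen after the data were seen in which it is assumed to vary like the other groups, 2951 higher and 2284 lower genes were called. Of these, 2368 and 1462 were shared with the calls from all libraries.

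The changes in the upward direction were larger. The median log2 fold change of the higher genes was 1.92 (lower and upper quartile 1.38 and 2.76), and that of the lower genes was -1.39 (-1.81 and -1.16). More than 4-fold changes were found in 1417 higher and 315 lower genes, or 46.8% and 18.8% of them. Over 10-fold changes were found in 518 and 64 genes, and over 32-fold changes in 173 and 26. Where every library of one genotype had at most 3 counts, the fitted fold rests on a small added count. This held for 562 higher and 62 lower genes, and the numbers over 4-, 10- and 32-fold use their fitted folds. With such genes set to their limit against 3 counts, the medians were 1.66 and -1.38. That limit was 2-fold or less for 234 of the 562 and 19 of the 62 genes, so the numbers of very large changes are uncertain.

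**Figure D1:**
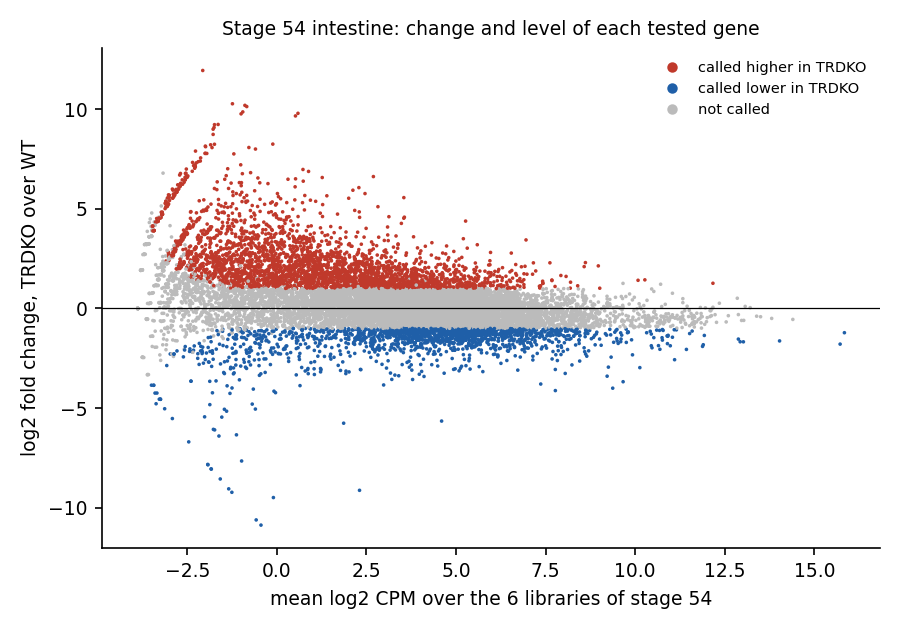
Log2 fold change of TRDKO over wild-type tadpoles at stage 54 (vertical axis) against the mean log2 CPM over the 6 libraries (horizontal axis), with 1 point for each of the 13954 genes tested. The 3025 genes called higher lie mostly at low levels, and the 1676 called lower extend to the most abundant genes. The oblique streaks at the left are genes with almost no reads in one of the genotypes.

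The balance of higher and lower genes depended on the scaling. With TMM scaling the median log2 fold change over every gene tested was 0.12, and 64.3% of the called genes were higher in TRDKO tadpoles. With upper-quartile factors the median was 0.29, with 3550 higher and 1223 lower genes (74.4% higher). With library size alone it was 0.69, with 5158 higher and 591 lower genes (89.7% higher). Higher genes outnumbered lower genes under each of these scalings.

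Higher and lower genes lay in different ranges of expression. The tested genes were divided into quintiles by their mean log2 CPM over the 6 libraries of the stage. In the lowest quintile, 45.6% of genes were called higher in TRDKO tadpoles and 7.92% lower. The shares were 34.1% and 7.45% in the next quintile, 16.0% and 11.3% in the middle one, and 8.03% and 14.8% in the one above it. In the highest quintile 4.69% were higher and 18.7% were lower. The median log2 fold change over all genes of a quintile was 1.32 in the lowest and -0.39 in the highest. With library size alone, the share of higher genes still declined, at 59.7% in the lowest and 14.7% in the highest quintile. The median of the highest quintile then became 0.17, and more of its genes were called higher than lower (14.7% and 5.52%). A gene low in one group could enter the test through another group in which it was high, so these shares describe the genes tested and not all genes of low level.

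**Figure D2:**
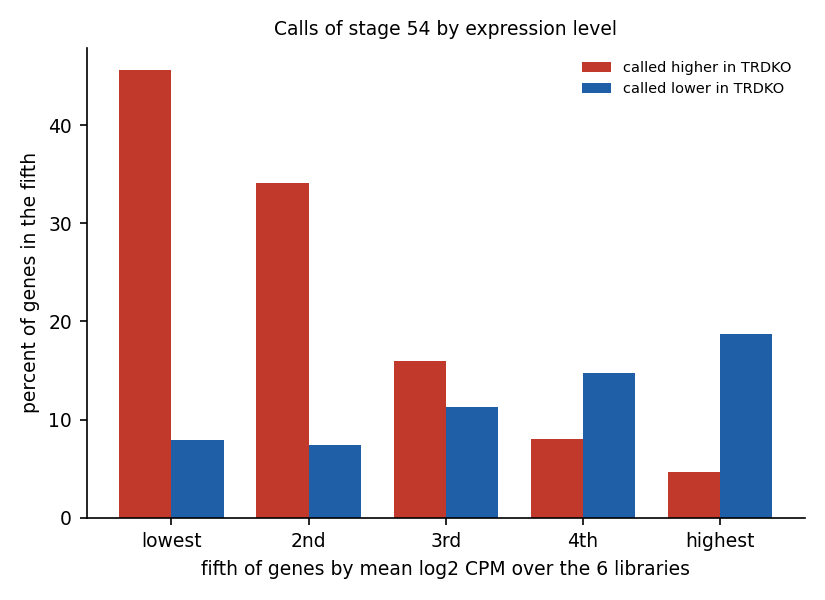
Percentage of genes called higher (red) or lower (blue) in TRDKO tadpoles at stage 54 (vertical axis) in each quintile of mean log2 CPM over the 6 libraries (horizontal axis). Higher calls decline with the level, at 45.6% in the lowest and 4.69% in the highest quintile, and lower calls reach 18.7% in the highest.

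At the upper end of the range, a few very abundant transcripts took less of the RNA in the knockout. The gene with the highest mean level over the 6 libraries took 2.70%, 2.70% and 3.22% of all counts in TRDKO replicates 1 to 3, against 6.63%, 6.70% and 6.84% in wild-type replicates 1 to 3. Its level was 29189 ± 3796 CPM in TRDKO and 100890 ± 2379 CPM in wild-type tadpoles (SD, n = 3 each), which is a log2 fold change of -1.79 with a standard error of 0.0798 (adjusted p = 1.64e-08, edgeR). At stage 61 this gene was at 6704 ± 90.6 CPM in TRDKO and 6122 ± 139 CPM in wild-type tadpoles (SD, n = 3 each), below both groups of stage 54. The next gene took 3.81%, 3.83% and 3.73% of counts in the TRDKO libraries and 5.97%, 5.92% and 5.98% in the wild-type libraries. Its log2 fold change was -1.22 with a standard error of 0.0467 (adjusted p = 6.92e-09, edgeR). With library size alone these changes were -1.23 and -0.65, so the second gene no longer exceeded 2-fold.

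The 10 most abundant genes together took 13.5% to 16.0% of counts in the TRDKO libraries and 21.7% to 22.0% in the wild-type libraries, without overlap between the genotypes. The first 2 of them alone took 6.51% to 6.95% in TRDKO and 12.6% to 12.8% in wild-type libraries. Most of the difference in the shares of the 10 and of the 100 most abundant genes therefore came from these 2 genes. Of these 10 genes, 5 were called lower and none higher, and 9 had a negative log2 fold change. Of the 100 most abundant genes, 22 were called lower and 1 higher, and 87 had a negative log2 fold change, with a median of -0.53. The share called lower was 12% over all tested genes and 18.7% in the highest quintile. With library size alone, 46 of the 100 had a negative log2 fold change, and 11 were called lower and 5 higher. Taking the 100 most abundant genes of each library separately, their share was 41.7% ± 1.41 in TRDKO and 47.9% ± 0.150 in wild-type tadpoles (SD, n = 3 each, two-sided exact permutation test, p = 0.1, the smallest that 3 libraries against 3 allow).

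More genes reached a fixed number of counts in the knockout. TRDKO libraries had 12662 to 12981 genes with at least 10 counts, and wild-type libraries had 11459 to 11886 (means of 12855 ± 170 and 11688 ± 215, SD, n = 3 each). Every TRDKO library exceeded every wild-type library (two-sided exact permutation test, p = 0.1, the smallest that 3 against 3 allow). The difference between the means was 1167 genes, and 1142 with each library thinned to the smallest total. Thinning evens the totals but not the TMM factors. At stage 54 these were 0.661 to 0.674 in wild-type and at least 0.958 in TRDKO libraries. At equal totals, 10 counts therefore stand for a higher CPM in wild-type than in TRDKO libraries. Whether more genes passed a fixed CPM in the knockout was not tested.

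Some of the higher genes were at the limit of detection in wild-type tadpoles. Of the 3025 higher genes, 562 (18.6%) had at most 3 counts in every wild-type library, and are referred to as silent there. In 401 of these, all 3 TRDKO libraries had more than 3 counts. In 59, replicate 3 was at 3 counts or fewer, and in 37 replicates 1 and 2 both were, so that replicate 3 alone carried the reads. Most reached low levels, with a median of 0.419 CPM in TRDKO tadpoles. A mean of at least 1 CPM was reached by 113 genes and of at least 10 CPM by 4. Set against 3 counts per wild-type library, 328 of the 562 genes were more than 2-fold higher, and the largest was at least 550-fold higher. At stage 61, 42 of the 562 genes were at 3 counts or fewer in every wild-type library, and 10 were so in every TRDKO library. A gene at such a low level could enter the test through its counts at stage 61. These numbers therefore follow in part from the choice of genes tested, and do not show when the genes came on.

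Fewer genes were at the limit of detection in the knockout. Among all tested genes, 67 had at most 3 counts in every TRDKO library and more in a wild-type library, whereas 818 had at most 3 counts in every wild-type library and more in a TRDKO library. Such genes could enter the test through another group, and 3 counts correspond to a lower CPM in the TRDKO than in the wild-type libraries. Of the 1676 lower genes, 62 (3.70%) had at most 3 counts in every TRDKO library, 21 of them with a mean of at least 1 CPM in wild-type tadpoles. Without TRDKO replicate 3, 96 genes were silent in this sense in the TRDKO libraries and called lower. Against 3 counts per TRDKO library, 43 of the 62 were more than 2-fold lower in TRDKO tadpoles. At stage 61, 29 of the 62 were again at 3 counts or fewer in every TRDKO library. With the 6 libraries of stage 54 fitted alone, which changes the genes tested, the libraries and the estimate of the spread together, 141 genes silent in wild-type tadpoles were called higher and 26 silent in TRDKO tadpoles were called lower.

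For single genes, the 2 largest rises and the 2 largest falls are given by ID. They had to average 10 CPM or more in the higher genotype, to show no overlap between the genotypes, to be called in the same direction without replicate 3, and to exceed 3 counts in at least 1 library of the lower genotype. In all, 2770 (91.6%) of the higher and 1658 (98.9%) of the lower genes showed no overlap, against 35.8% and 32.6% of all genes tested, of which 21.7% and 12% were called.

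The largest fall was ENSXETG00000017149, which was all but absent from the knockout. It had 0.219, 0.143 and 0.165 CPM in TRDKO replicates 1 to 3, from 6, 3 and 6 counts, against 99.9, 102 and 102 CPM in the wild-type libraries. All TRDKO libraries were low, replicate 3 included, and the libraries of a genotype lay close together. Its log2 fold change was -9.12 with a standard error of 0.221 (adjusted p = 3.91e-10, edgeR), and between -9.30 and -9.03 with each library of the stage left out in turn. At stage 61 its level was 0.0186 ± 0.0323 CPM in TRDKO and 0.671 ± 0.163 CPM in wild-type tadpoles (SD, n = 3 each), so it was also low in the wild type by then.

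ENSXETG00000033172 had 0.183, 0 and 1.79 CPM in TRDKO replicates 1 to 3, against 43.3, 42.0 and 40.3 CPM in the wild-type libraries. The genotypes were far apart, although replicate 3 had 65 counts where replicates 1 and 2 had 5 and 0. The log2 fold change was -5.76 with a standard error of 0.592 (adjusted p = 6.65e-06, edgeR), and -8.60 without replicate 3. At stage 61 the gene had 0.414 ± 0.0230 CPM in TRDKO and 1.85 ± 0.286 CPM in wild-type tadpoles (SD, n = 3 each).

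Among the rises, ENSXETG00000019005 had 32.9, 32.3 and 1.38 CPM in TRDKO replicates 1 to 3, against 0.208, 0.0972 and 0.226 CPM in the wild-type libraries, which had 2 to 4 counts. All 3 TRDKO libraries were above the wild type, but replicate 3 was far nearer to it than replicates 1 and 2 were. The log2 fold change was 6.97 with a standard error of 1.21 (adjusted p = 3.71e-04, edgeR), and 7.55 without replicate 3. With the 6 libraries of stage 54 fitted alone, the adjusted p was 0.00767 (edgeR). By stage 61 this gene was at 0.443 ± 0.0625 CPM in TRDKO and 0.210 ± 0.0695 CPM in wild-type tadpoles (SD, n = 3 each). That difference did not pass the test (adjusted p = 0.523, edgeR). Its high level was therefore seen in TRDKO replicates 1 and 2 of stage 54 alone among the 12 libraries.

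ENSXETG00000003327 had 45.3, 42.4 and 1.05 CPM in TRDKO replicates 1 to 3, against 0.0693, 0.389 and 0.226 CPM in the wild-type libraries. Here too replicate 3 was the lowest TRDKO library. The log2 fold change was 6.88 with a standard error of 1.35 (adjusted p = 8.64e-04, edgeR), and 7.46 without TRDKO replicate 3. Leaving out each library of the stage in turn gave 6.40 to 7.53. Unlike the gene before it, ENSXETG00000003327 stayed high in the knockout at stage 61, with 127 ± 3.20 CPM in TRDKO and 0.0342 ± 0.0303 CPM in wild-type tadpoles (SD, n = 3 each, adjusted p = 3.46e-05, edgeR).

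**Figure D3:**
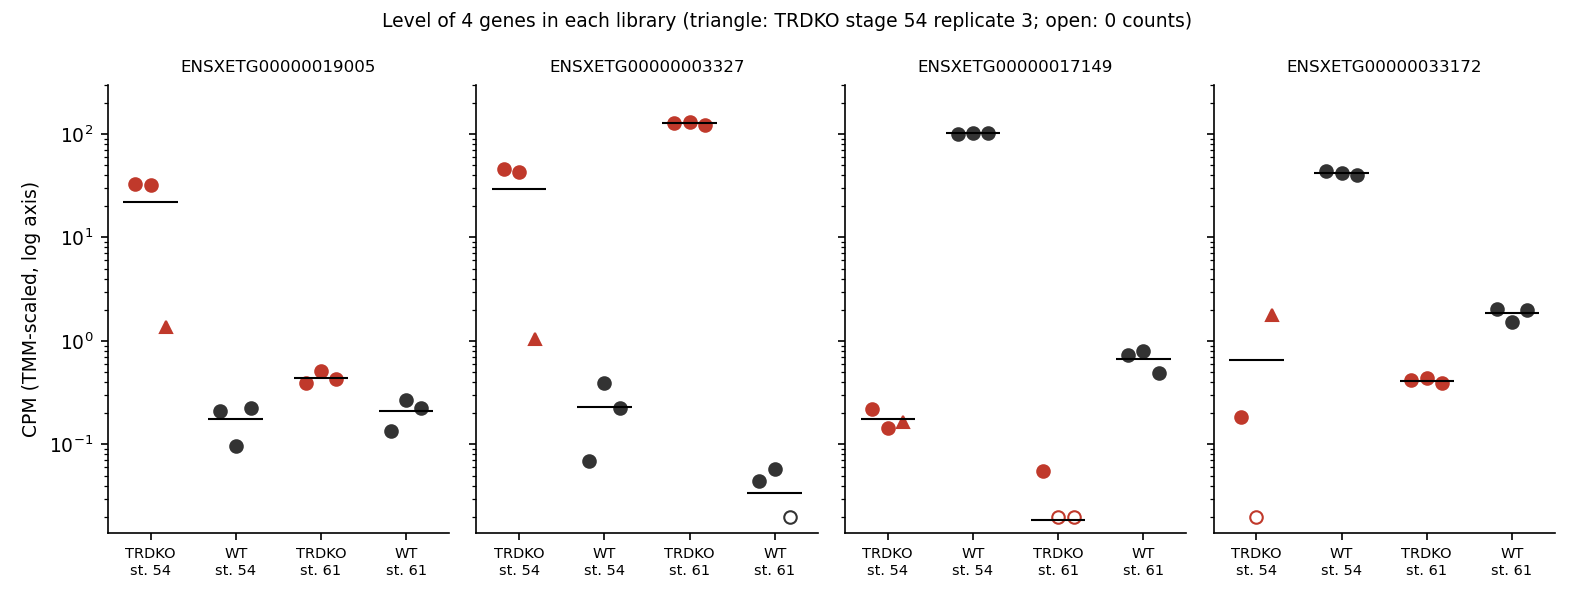
Level in CPM (log axis) of the 4 genes in each of the 12 libraries, by genotype and stage, with the group mean as a line, replicate 3 of the stage 54 TRDKO group as a triangle and libraries with 0 counts as open circles at the bottom. In both rising genes replicate 3 lies at 1.38 and 1.05 CPM while replicates 1 and 2 lie above 32 CPM, and in ENSXETG00000017149 all 3 TRDKO libraries lie together.

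The behaviour of replicate 3 in these rises was shared by other strong ones. Among genes averaging 10 CPM or more over the 6 libraries, 13 were called more than 32-fold higher, and in 11 of these replicate 3 lay more than 2-fold below the mean of replicates 1 and 2. This was so in 17 of the 22 genes called 10- to 32-fold higher, in 29 of 108 called 4- to 10-fold higher and in 55 of 527 called 2- to 4-fold higher. Genes with replicate 3 more than 2-fold above the others numbered 0, 4, 14 and 42 in the same order. Of the 1164 lower genes at this level, replicate 3 lay more than 2-fold below the others in 99 and above them in 36. Over all 7333 genes at this level, called or not, replicate 3 lay below in 5.63% and above in 4.17%. The fold was fitted from these same libraries, of which replicates 1 and 2 are nearly alike. The numbers by fold therefore follow in part from the grouping and do not test it.

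For most called genes of all levels, the 3 TRDKO libraries nevertheless lay on the same side. Compared with the wild-type mean on the log2 CPM scale, 2921 (96.6%) of the 3025 higher genes were above it in every TRDKO library, and all 1676 lower genes were below it in every TRDKO library. More than 2-fold changes in every TRDKO library were found in 1955 higher and 1083 lower genes, 64.6% of each. In 555 higher and 229 lower genes, replicates 1 and 2 passed 2-fold and replicate 3 did not. In 234 higher and 206 lower genes, only replicate 3 passed it. The median log2 difference from the wild-type mean over the higher genes was 1.71, 1.69 and 1.63 in replicates 1 to 3, and over the lower genes -1.34, -1.34 and -1.53. Since these genes were called with the same libraries, the numbers describe the calls and do not test them.

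**Figure D4:**
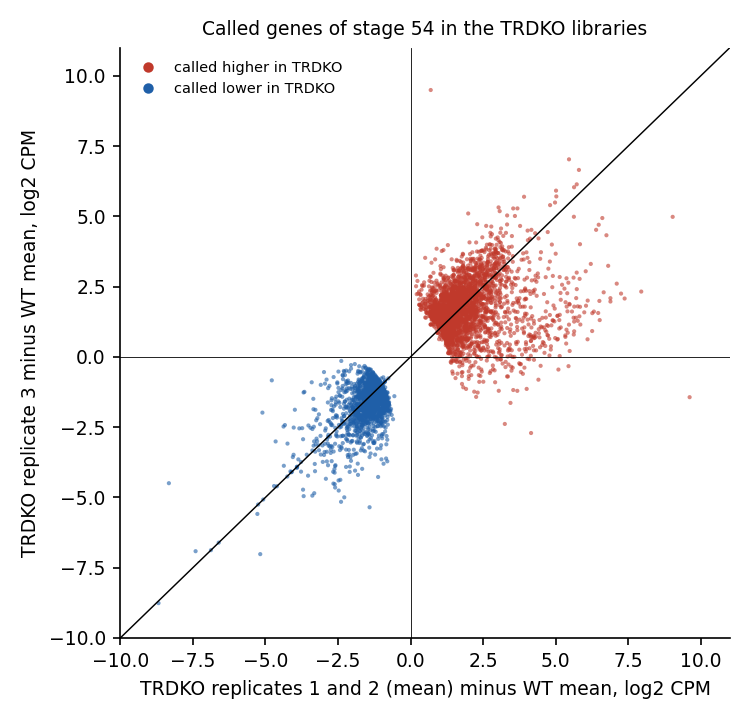
Difference from the wild-type mean in log2 CPM at stage 54 for each called gene, with TRDKO replicate 3 on the vertical axis and the mean of TRDKO replicates 1 and 2 on the horizontal axis. Points on the diagonal changed equally. All lower genes lie below 0 in replicate 3, while a group of higher genes lies far under the diagonal, and 96 higher genes lie at or below 0 in replicate 3.

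The stage 61 libraries are not among those compared at stage 54, but both comparisons came from the same fit with a shared spread. Being called at both stages is therefore not independent. The stage 61 libraries were used to ask whether the same genes differed between the genotypes later. They mostly did not differ in the same way. Among the 3025 genes called higher at stage 54, 573 (18.9%) were again higher in TRDKO tadpoles at stage 61, 803 (26.5%) were called lower and 1649 (54.5%) were not called. Over all tested genes, 34.2% were called at stage 61, 14.1% higher and 20.1% lower. The median log2 fold change of the 3025 genes was 1.92 at stage 54 and -0.16 at stage 61 (quartiles -1.11 and 0.74). A positive value at stage 61 was found in 45.2% of them, close to the 44.9% of all genes.

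Of the 1676 lower genes, 421 (25.1%) were called lower at stage 61 and 172 (10.3%) higher, against 20.1% and 14.1% of all genes, and 1083 (64.6%) were not called. The median log2 fold change was -1.39 at stage 54 and -0.36 at stage 61 (quartiles -1.04 and 0.27). At stage 61, 65.7% had a negative value, against 55.0% of all genes. With library size alone, which lowers the median log2 fold change of all genes at stage 61 to -0.75, the shares of higher genes above 0 and of lower genes below 0 were 25.3% and 82.7%, against 21.9% and 78.0% of all genes. Across the 13954 genes, the log2 fold changes of both stages correlated weakly (Pearson's r 0.168, Spearman's rho 0.0306), a description over genes that share libraries and scaling.

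Whether the genotype effect itself differed between the stages was tested gene by gene, with the interaction contrast of the same edgeR model at an adjusted p under 0.05. This called 9427 genes, 67.6% of those tested. The TRDKO minus wild-type difference was more positive at stage 54 than at stage 61 in 37.5% of the tested genes and more negative in 30.0%. These shares count the sign of the contrast and not the stage with the larger effect. Of the 3025 higher genes, this difference was more positive at stage 54 than at stage 61 in 2336 (77.2%), less positive in 119 and not past the threshold in 570. All 803 genes that were higher at stage 54 and lower at stage 61 passed it. Of the 1676 lower genes, the difference was more negative at stage 54 in 1190 (71.0%), less negative in 76 and not past the threshold in 410. These shares follow in part from choosing genes called at stage 54. The genes called at stage 61 were chosen in the mirrored way. Of these, 68.6% of the higher ones had a more positive difference at stage 61, and 77.8% of the lower ones a more negative difference there.

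The levels behind these differences show where each group stood. Over the 3025 higher genes the median level at stage 54 was 2.04, 2.03 and 1.74 log2 CPM in TRDKO replicates 1 to 3, against -0.15, -0.09 and -0.13 in the wild-type libraries. At stage 61 it was 2.27 to 2.29 in TRDKO and 2.59 to 2.62 in wild-type tadpoles. The wild-type libraries of stage 54 were the only ones with medians below 0, and the TRDKO libraries of stage 54 lay nearer to those of stage 61. Over the 1676 lower genes it was 3.76, 3.78 and 3.61 log2 CPM in TRDKO replicates 1 to 3 at stage 54, against 5.18 to 5.23 in the wild-type libraries. Their medians at stage 61 were 3.21 to 3.24 in TRDKO and 3.55 to 3.60 in wild-type tadpoles. The sets were called from the difference at stage 54, so the levels of both genotypes at that stage are part of the choice. The stage 61 levels were not part of that difference, but they had a part in which genes were tested. A gene low at stage 54 could enter the test through them, and 207 tested genes had at most 3 counts in every stage 54 library of both genotypes. That the wild-type libraries of stage 54 stand apart therefore follows in part from the choice of genes.

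**Figure D5:**
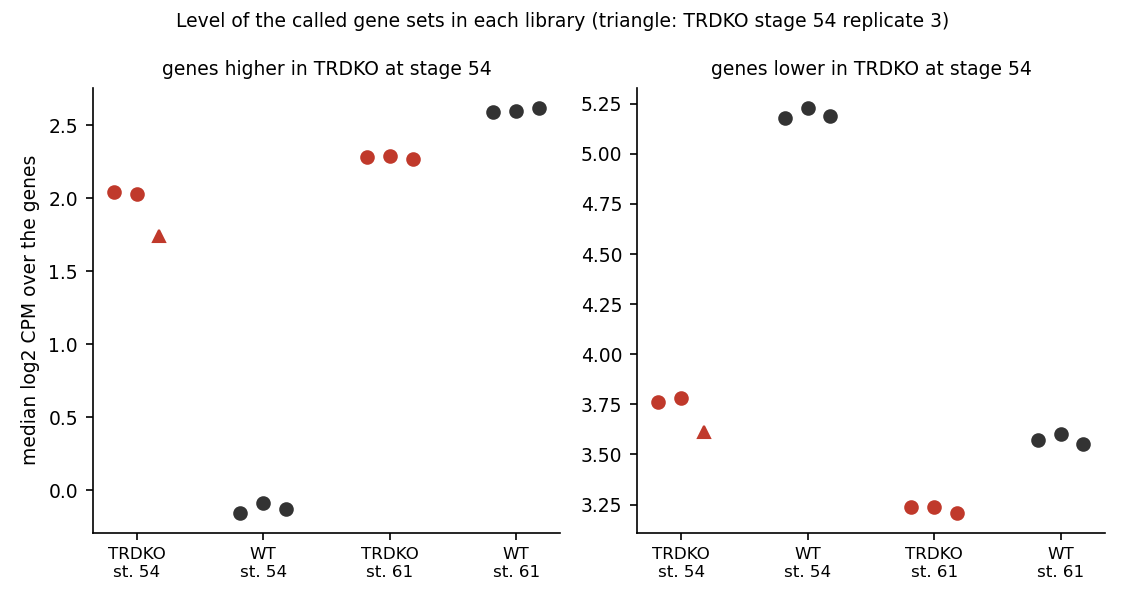
Median log2 CPM in each library (vertical axis, not starting at 0) over the 3025 genes higher (left) and the 1676 genes lower (right) in TRDKO tadpoles at stage 54, by genotype and stage, with TRDKO stage 54 replicate 3 as a triangle. In both sets the wild-type libraries of stage 54 stand apart from the other 3 groups, at -0.15 to -0.09 for the higher and 5.18 to 5.23 for the lower genes.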

How the data were processed

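RNA from intestine was sequenced from poly-A-selected libraries. The authors mapped reads with STAR 2.6.1c to the Ensembl Xenopus tropicalis genome with the JGI gene models and counted them per gene with featureCounts 1.6.3. The deposited values are these raw counts, without normalization, for 19921 IDs in 12 libraries. The strand setting and the treatment of reads matching several genes are not given in the sources used here, so counts of overlapping genes and near-identical copies are uncertain.

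Columns were matched to libraries by name. One quasi-likelihood model of all 12 libraries was fitted with edgeR 4.0.16 (R 4.3.3), with TMM factors and 1 coefficient for each of the 4 combinations of genotype and stage, to the 13954 genes that filterByExpr retained. Log2 CPM used a prior count of 2. Standard errors were derived from the F statistic. Exact permutation tests enumerated all splits, and the procedure was run on simulated data with known changes in a small part of the genes. The simulation gave each gene the same spread in every group. It therefore does not cover the uneven TRDKO group of stage 54 or changes in as many genes as were called. Figures were drawn with matplotlib 3.10.9. Alternatives were DESeq2 1.42.0, edgeR or DESeq2 on the 6 libraries of stage 54, other scalings, filters and thresholds, a replicate block, and each library of stage 54 left out in turn with the same genes. The comparison, the lists and the rule for genes given by ID were chosen with earlier results of these data known. Analyses planned by gene symbol were not run, because the gene table at hand, of assembly UCB_Xtro_10.0, holds no Ensembl IDs to match.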

Additional observations from a re-analysis of the deposited data

Results flagged for a closer look

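Differences between the genotype effects at stage 54 and at stage 61 were found in 9427 genes by the interaction contrast (edgeR, adjusted p under 0.05). Among the genes given by ID, the TRDKO minus wild-type log2 change was larger at stage 54 than at stage 61 by 5.93 in ENSXETG00000019005 (adjusted p = 0.0281, edgeR interaction contrast). It was more negative at stage 54 in ENSXETG00000017149, by a difference of -4.42 (adjusted p = 0.0108, same contrast), and in ENSXETG00000033172, by -3.62 (adjusted p = 0.00898, same contrast). In ENSXETG00000003327 the difference of -4.64 was not past the threshold (adjusted p = 0.257, same contrast). These genes were chosen for the largest changes at stage 54, which favours a larger change there. At stage 61, ENSXETG00000017149 had 2, 0 and 0 counts in the TRDKO libraries and ENSXETG00000003327 had 2, 3 and 0 in the wild-type libraries. The sizes of their stage 61 changes therefore rest in part on a small added count. The share of counts in the 100 most abundant genes was lower in every TRDKO library than in every wild-type library at stage 54 (40.9% to 43.4% against 47.8% to 48.0%). At stage 61 it was higher in every TRDKO library (49.9% to 50.4% against 34.0% to 34.5%). The difference at stage 54 minus that at stage 61 was -22.0 percentage points and was not tested.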

How the results depend on the processing

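With each library of stage 54 left out in turn, edgeR called 2902 to 3040 higher and 1606 to 1719 lower genes, with 538 to 605 genes silent in wild-type and 53 to 96 silent in TRDKO tadpoles, and 8852 to 11154 genes in the interaction. The highest number in the interaction came without TRDKO replicate 3. In the same fits the difference in detected genes was 1053 to 1266 and that in the share of the 100 most abundant genes was -6.95 to -5.72 percentage points. Without a fold threshold, 5253 higher and 4436 lower genes were called, and glmTreat, which tests against a 2-fold change, called 1898 and 990. Library size alone gave 5158 and 591. Genes silent in wild-type tadpoles and called higher numbered 213 with a mean of at least 10 counts required and 141 with the 6 libraries fitted alone. Those silent in TRDKO tadpoles and called lower numbered 17 and 26 in these fits, 155 without a filter and 116 with DESeq2 on 12 libraries. With the 6 libraries of stage 54 fitted alone, edgeR tested 12546 genes and called 2373 higher and 1571 lower, fewer than the 3025 and 1676 of the fit on 12 libraries. DESeq2 called 3070 higher and 1792 lower genes on 12 libraries and 2707 and 1664 on 6. With replicates 1 and 2 of the TRDKO group summed to 1 library, an alternative chosen after seeing the data, 3074 and 1680 were called. The 4 genes given by ID kept their direction and call in each of 15 alternatives. The fit without TRDKO replicate 3 is among these and was part of the rule that chose the genes. They were also chosen for the largest changes, so their stability is no test of them. Deviations of same-numbered TRDKO and wild-type libraries from their group means correlated at -0.0269, 0.0161 and -0.000142, which showed no pairing by replicate number. These values cannot exclude a pairing. TRDKO replicates 1 and 2 were nearly alike, and the wild-type libraries differed by little more than sampling noise. The fit with the replicate number as a block called 2936 higher and 1696 lower genes, and 9206 in the interaction.

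Depth limits the genes called silent, since 3 counts in a wild-type library correspond to 0.146 to 0.208 CPM.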

Other observations

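Called genes that passed 2-fold in all 3 TRDKO libraries of stage 54 and those that passed it in some libraries were also set beside stage 61. Of the 1955 higher genes that passed 2-fold in every TRDKO library, 361 (18.5%) were called higher and 530 (27.1%) lower at stage 61, against 14.1% and 20.1% of all genes tested. Of the 555 that passed it in replicates 1 and 2 but not in replicate 3, 136 (24.5%) were called higher and 121 (21.8%) lower. Of the 234 that passed it in replicate 3 alone, 45 (19.2%) were called higher and 48 (20.5%) lower. The median log2 fold change at stage 61 was -0.22 in the genes that passed it in every TRDKO library and 0.06 in those that passed it in replicates 1 and 2. Among the lower genes, 279 (25.8%) of the 1083 that passed 2-fold in every TRDKO library were called lower at stage 61 and 107 (9.88%) higher. Of the 229 that passed it in replicates 1 and 2 but not in replicate 3, 39 (17.0%) were called lower and 35 (15.3%) higher. Of the 206 that passed it in replicate 3 alone, 55 (26.7%) were called lower and 14 (6.80%) higher. These sets were formed after the data were seen, and the difference between them was not tested.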
